A study of Mus musculus with 6 samples.

Results

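The apolipoprotein genes described here are Apoa1, Apoa2, Apoa4, Apoa5, Apob, Apoc1, Apoc2, Apoc3, Apoe and Apom. They were taken by symbol from the array annotation, using the rows with exactly 1 gene symbol, and all 10 genes were found, of 18193 genes with such a row. They are covered by 16 of the 45037 probe sets, groups of short probes that each report on 1 transcript region. Livers came from male C57BL/6 mice that, from 8 weeks of age, received either a normal diet, whose composition the labels do not give, or a diet in which fat supplied 60% of the calories, for 12 weeks. Each diet had 6 mice, whose RNA was pooled and is read here as 3 pools of 2 mice, with each pool on its own Affymetrix mouse expression array. No transgene, drug or other agent is named for either diet. The design was aimed at genes involved in the disturbed handling of hepatic lipids in obesity. The array of a pool is the replicate (n = 3 per diet), so p-values reflect variation among pools, not among single mice.

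Apolipoproteins are the protein part of lipoprotein particles, which carry triglyceride and cholesterol through the blood. The liver makes most of them. Apolipoprotein B is built into very-low-density lipoprotein (VLDL) inside the hepatocyte and stays with the particle, whereas the smaller A, C and E proteins move between particles and act as scaffolds, enzyme cofactors, inhibitors or receptor ligands. Apolipoprotein M belongs to another protein family, the lipocalins, and rides on high-density lipoprotein (HDL).

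Levels were log2 values, on which a step of 1 is a 2-fold difference, and a positive difference means a higher level under the high-fat diet. Each difference carries ± its standard error (SE) from limma. Of the 10 apolipoprotein genes, 2 rose under the high-fat diet (Apoa4 and Apoc2), 1 fell (Apom) and 7 were not called at an adjusted p below 0.05. Across all 14071 genes tested, 7.60% were called, 5.87% as higher and 1.73% as lower. All 10 genes had passed the filter on low levels. The median difference was 0.095 over the 10 genes and 0.003 over all tested genes. The median of the 10 was -0.023 after cyclic loess scaling, 0.107 after quantile normalization and 0.141 after median centring. For 5 of the 10 genes the diets' arrays did not overlap. Among all tested genes the share without overlap was 35.8%. No test of the family as a whole was made.

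**Figure D1:**
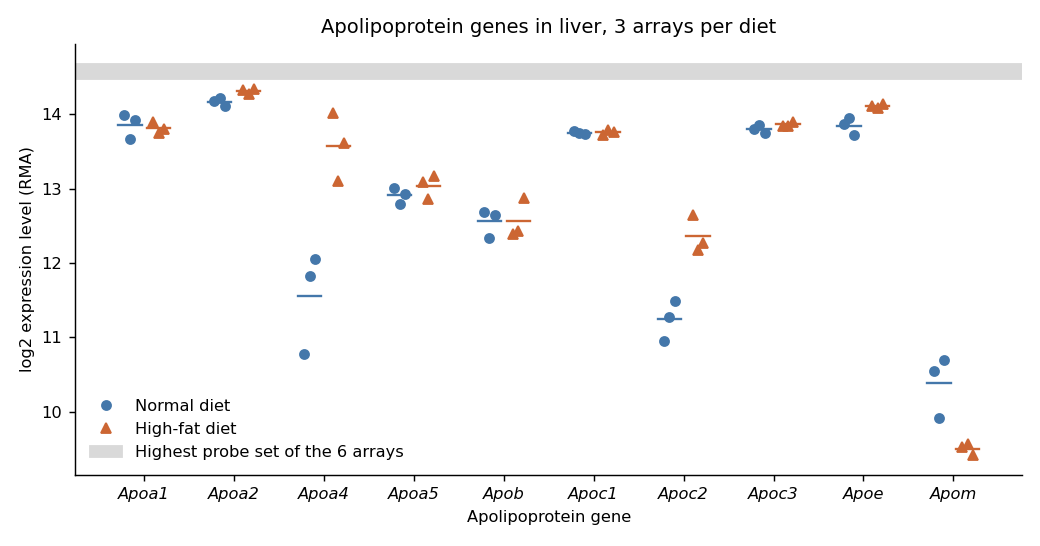
Log2 expression level of each apolipoprotein gene (its probe set with the highest mean) in the 3 normal diet arrays (circles) and the 3 high-fat arrays (triangles), with horizontal lines at the means and a grey band over the highest probe set values of the 6 arrays, 14.47 to 14.68. Apoa4 and Apoc2 lie higher and Apom lower in every high-fat array, and the other genes differ by at most 0.26.

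The sequences just upstream of the 3 called genes are shown first, because these are the members whose transcript levels differed between the diets. They run 5' to 3' on the strand of the gene and end at the base before the annotated start, and they come from RefSeq (GRCm38.p6). Capitals mark matches to motifs of factors known to act on liver genes. For Apoc2 the printed stretch has 142 bases, since the next 108 bases of the searched window lie in the neighbouring gene Apoc4. Another annotated gene, Gm44805, also overlaps this window and was left out of the trimming.
Apoa4 (chr9:46240594-46240843, plus strand): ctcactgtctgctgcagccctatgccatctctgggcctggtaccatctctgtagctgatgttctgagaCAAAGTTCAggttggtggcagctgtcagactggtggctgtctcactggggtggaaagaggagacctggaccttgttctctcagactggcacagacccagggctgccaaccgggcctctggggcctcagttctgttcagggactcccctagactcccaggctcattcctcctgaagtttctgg
Apoc2 (chr7:19677942-19678083, minus strand): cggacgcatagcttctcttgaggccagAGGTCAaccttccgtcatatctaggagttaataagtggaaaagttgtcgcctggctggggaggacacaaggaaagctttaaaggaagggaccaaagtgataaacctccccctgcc
Apom (chr17:35131802-35132051, minus strand): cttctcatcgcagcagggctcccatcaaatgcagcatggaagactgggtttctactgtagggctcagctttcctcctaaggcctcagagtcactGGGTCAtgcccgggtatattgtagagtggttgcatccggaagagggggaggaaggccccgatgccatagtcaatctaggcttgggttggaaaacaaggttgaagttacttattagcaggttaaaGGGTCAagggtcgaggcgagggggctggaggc

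The motifs searched, on both strands and over 250 bases before the start, were TATAAA (the TATA box), AGGTCA and its variant GGGTCA (bound by nuclear receptors), CAAAGTCCA and its variant CAAAGTTCA (bound by HNF4), TTGCNNAA (C/EBP), TGACGT (the core of the cyclic AMP response element) and CACGTG (the E-box). The variant letters were added after the sequences had been seen. The marks in Apoa4 and Apom are of these variants only, so their shares of windows do not measure how unusual the matches are. Apoa4 held CAAAGTTCA at positions -182 to -174, a string found in 0.335% of 32817 such windows. Apoc2 held AGGTCA at -115 to -110, present in 14.0% of windows, and Apom held GGGTCA at -156 to -151 and -32 to -27, present in 11.6%. None of the 3 windows held the other strings searched. Among the 8 of the 10 genes with an entry, AGGTCA was also found before Apoa2 and GGGTCA before Apoa5 and Apoe, genes that were not called. None of these exact strings was therefore shared by the 3 called genes and, in these windows, none was common to Apoa4 and Apoc2. Apoc2 and Apom held different forms of the string bound by nuclear receptors. Other forms of the motifs were not searched.

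Apoa4, whose protein travels on chylomicrons, VLDL and HDL, had the widest difference of the 10 genes. Its log2 level was 10.77, 11.83 and 12.06 in normal diet 1, 2 and 3 and 14.02, 13.10 and 13.62 in high-fat 1, 2 and 3. Every high-fat array lay above every normal diet array, with 1.04 between the nearest arrays. The gene rose by 2.03 ± 0.36, or 4.07-fold (n = 3 arrays per diet, limma adjusted p = 0.0204). Its absolute difference exceeded that of 99.6% of tested genes. The probe set used for Apoa4 carries a suffix for possible matches to other transcripts. A second Apoa4 probe set, without such a suffix, read 9.78, 11.02 and 11.21 under the normal diet and 13.75, 12.57 and 13.06 under the high-fat diet. There the difference was 2.46 ± 0.42, or 5.49-fold (limma adjusted p = 0.0208, over all probe sets). The Apoa4 difference was 1.64 without normal diet 1 (adjusted p = 0.0221), and calls ended without high-fat 1, 2 or 3 (1.81, 2.27 and 2.01, adjusted p = 0.0786, 0.0518 and 0.0913).

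Apoc2 encodes the cofactor that lipoprotein lipase needs to release fatty acids from circulating triglyceride. Its level was 10.96, 11.27 and 11.49 in normal diet 1, 2 and 3 and 12.64, 12.17 and 12.26 in high-fat 1, 2 and 3. The diets did not overlap. Apoc2 rose by 1.12 ± 0.18, or 2.17-fold (n = 3 arrays per diet, limma adjusted p = 0.0139). It has 1 probe set among those used here. The call ended without high-fat 1, 2 or 3 (0.98, 1.21 and 1.17, adjusted p = 0.0561, 0.0514 and 0.0631) and held without each normal diet array. In RefSeq the gene Gm44805 spans Apoc2 and Apoc4, and whether the Apoc2 probe set also picks up such a transcript was not tested.

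Normal diet 1 was the lowest array of its diet and high-fat 1 the highest of its diet for Apoa4 and for Apoc2 alike. These arrays also marked the ends of a measure of RNA integrity, the excess of the Gapdh control at the 3' end over the 5' end, in log2 units. It was 0.36 in normal diet 1 and -0.19 in high-fat 1, while the remaining arrays lay from -0.04 to 0.01. The excess of the actin control was 1.59 in normal diet 1, 1.02 in high-fat 1 and 1.12 to 1.23 in the others. Without normal diet 1 the differences were 1.64 for Apoa4 and 0.98 for Apoc2, both called, and without high-fat 1 they were 1.81 and 0.98, neither called (adjusted p = 0.0786 and 0.0561). The loss of both calls was not particular to high-fat 1. It also occurred without high-fat 2 (limma adjusted p = 0.0518 and 0.0514) and without high-fat 3 (0.0913 and 0.0631), whose Gapdh values were -0.04 and 0.01. The part of RNA integrity in these differences was not tested.

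Apom, which encodes the lipocalin that carries sphingosine 1-phosphate on HDL, went the other way. Its level was 10.55, 9.91 and 10.69 in normal diet 1, 2 and 3 and 9.52, 9.57 and 9.41 in high-fat 1, 2 and 3. The high-fat arrays were tightly grouped (SD 0.081) and the normal diet arrays spread (SD 0.417), with normal diet 2 nearest to the high-fat arrays. Apom fell by 0.88 ± 0.20 on the log2 scale and was 1.84-fold lower (n = 3 arrays per diet, limma adjusted p = 0.0407). The other Apom probe set read 9.70, 9.28 and 9.88 under the normal diet and 8.95, 8.87 and 8.64 under the high-fat diet, a fall by 0.80 ± 0.17 (limma adjusted p = 0.0420, over all probe sets). The difference was -1.12 without normal diet 2. Leaving out normal diet 1 ended the Apom call (-0.80, adjusted p = 0.0810). So did leaving out high-fat 1, 2 or 3 in turn (-0.89, -0.92 and -0.84, adjusted p = 0.131, 0.124 and 0.146).

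**Figure D2:**
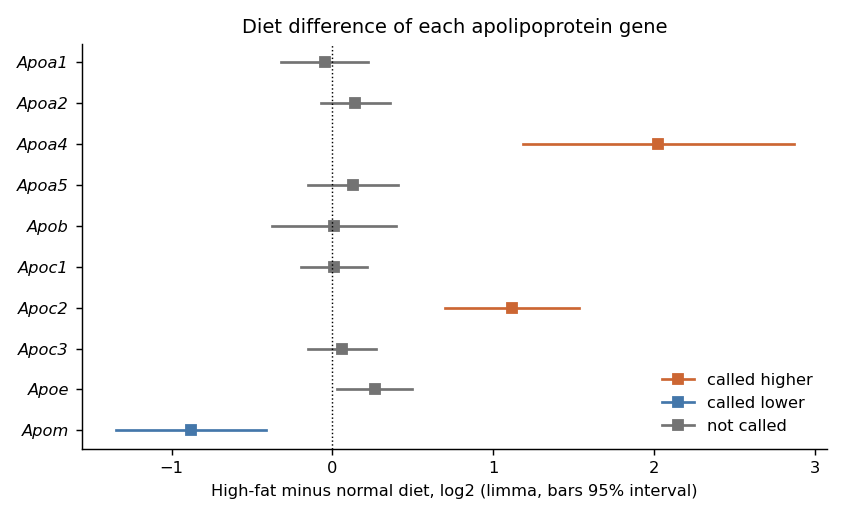
High-fat minus normal diet difference of each apolipoprotein gene in log2 units, with the 95% interval of limma's fit as bars. The called genes are Apoa4 (1.19 to 2.87), Apoc2 (0.70 to 1.53) and Apom (-1.35 to -0.42), and of the other intervals only that of Apoe (0.03 to 0.50) leaves out 0.

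Among the genes of HDL proteins, Apoa1 and Apoa2 were not called. Apoa1, which encodes the scaffold of HDL and the activator of cholesterol esterification, read 13.99, 13.67 and 13.93 under the normal diet and 13.90, 13.75 and 13.80 under the high-fat diet. The diets overlapped fully, at a difference of -0.05 ± 0.12 with a 95% interval from -0.32 to 0.22 (limma adjusted p = 0.816). Its 4 probe sets differed by -0.06 to 0.01. Apoa2, the gene of the second major HDL protein, read 14.18, 14.23 and 14.11 against 14.33, 14.27 and 14.34. All high-fat arrays lay above the normal diet arrays, with 0.05 between the nearest arrays. The Apoa2 difference was 0.14 ± 0.09 (limma adjusted p = 0.343), with a 95% interval from -0.07 to 0.36.

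Apob, which encodes the structural protein of VLDL, read 12.69, 12.34 and 12.64 under the normal diet and 12.38, 12.43 and 12.88 under the high-fat diet. No array order separated the diets, and the difference was 0.01 ± 0.17 (95% interval -0.38 to 0.39, limma adjusted p = 0.980). A second Apob probe set of far lower signal differed by -0.19 ± 0.13 (limma adjusted p = 0.399, over all probe sets). The Apob message is edited in mouse liver by the enzyme of Apobec1, which makes the shorter protein form. Apobec1 read 7.28, 5.39 and 8.09 under the normal diet and 6.88, 6.26 and 6.54 under the high-fat diet. The normal diet arrays spanned the high-fat ones, and the Apobec1 difference of -0.36 ± 0.61 was not called (limma adjusted p = 0.729). Array weights turned its sign (0.16), and so did leaving out normal diet 3 (0.23).

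Of the 10 genes, the others whose proteins hold back or aid triglyceride clearance, Apoc3, Apoc1 and Apoa5, were not called. Apoc3, the inhibitor of lipoprotein lipase and of remnant uptake, read 13.80, 13.86 and 13.75 against 13.85, 13.84 and 13.90 under the high-fat diet. Its difference was 0.06 ± 0.09 (95% interval -0.15 to 0.27, limma adjusted p = 0.686). Apoc1, whose protein also interferes with particle uptake, lay between 13.73 and 13.80 in all 6 arrays and differed by 0.01 ± 0.09 (95% interval -0.20 to 0.22, limma adjusted p = 0.956). Apoa5, whose protein promotes triglyceride hydrolysis, read 13.01, 12.80 and 12.93 against 13.09, 12.86 and 13.17. It differed by 0.13 ± 0.12 (95% interval -0.15 to 0.41, limma adjusted p = 0.515), with overlapping diets.

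Apoe encodes the ligand through which remnants are taken up, and macrophages make it as well as hepatocytes. It read 13.87, 13.95 and 13.72 under the normal diet and 14.11, 14.09 and 14.14 under the high-fat diet. The diets did not overlap, but the difference of 0.26 ± 0.10 was not called (95% interval 0.03 to 0.50, limma adjusted p = 0.142). In these livers 4 of 7 tested Kupffer cell and macrophage markers rose (Adgre1, Cd68, Vsig4 and Cd5l, by 0.64 to 1.28), 0 fell and 3 were not called, and the mean level of the 7 was 6.77 to 7.05 under the normal diet and 7.31 to 7.55 under the high-fat diet. Of the markers of resident Kupffer cells among them, Vsig4 and Cd5l rose by 0.71 and 0.81, while Clec4f, Timd4 and Marco differed by 0.07, -0.15 and -0.06 and were not called. Of 4 tested markers of lipid-associated macrophages 2 rose, Lgals3 by 2.19 and Gpnmb by 1.17, and Cd9 (1.08) and Trem2 (-0.43) were not called. Their mean level was 5.97 to 6.82 under the normal diet and 7.28 to 7.46 under the high-fat diet. Stellate cell markers rose in 3 of 6 cases (Lrat 1.43, Dcn 0.63 and Col3a1 2.30), while Reln (0.35), Col1a1 (0.21) and Rgs5 (0.07) were not called. The mean level of the 6 was 6.86 to 7.20 against 7.52 to 8.06. The 6 endothelial and 4 cholangiocyte markers tested were not called. Of all tested genes, 5.87% were called higher and 1.73% lower. The part of these cell types in the Apoe value was not tested. In whole liver, more cells of a type and more RNA per cell cannot be told apart.

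All 5 tested hepatocyte markers were well detected. None rose and 1, the fibrinogen gene Fgb, fell (-0.78 ± 0.12, limma adjusted p = 0.0131). Ahsg (-0.24) and Tat (-0.26) lay lower and Alb (0.07) and Ttr (0.13) higher in every high-fat array without being called, and the median of the 5 differences was -0.24. The mean level of the 5 was 13.40 to 13.47 under the normal diet and 13.20 to 13.26 under the high-fat diet. Their part in the apolipoprotein values was not tested. Apoa4 is also a gene of enterocytes. Of 4 tested enterocyte markers only Fabp2 was called (1.23), and the other 3, Alpi, Rbp2 and Cdx2, lay between 3.54 and 5.25, where the level filter of the arrays lay at 3.48 to 3.59. Their part in the Apoa4 difference was not tested.

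Of the 10 genes, 5 had a mean level above 13, close to the highest values on the arrays. Of all 47 tested genes above 13, 4 (8.51%) were called, against 82 of 683 (12.0%) with means from 10 to 13. The median SD within a diet was 0.076 above 13 and 0.162 from 10 to 13. It was 0.028 for Apoc1, 0.044 for Apoc3, 0.048 for Apoa2 and 0.584 for Apoa4. Whether signal near the top of the scale compressed differences of Apoa1, Apoa2, Apoc1, Apoc3 and Apoe was not tested.

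**Figure D3:**
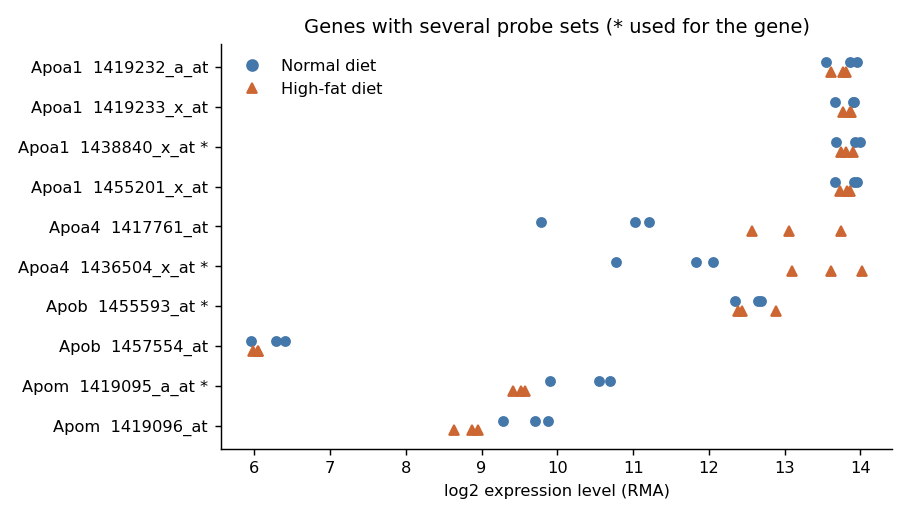
Log2 level of each probe set of the 4 apolipoprotein genes with several probe sets, by array (circles, normal diet; triangles, high-fat diet); an asterisk marks the probe set used for the gene. The probe sets of Apoa4 and Apom separate the diets, and those of Apoa1 and Apob do not.

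With probe sets tested one by one, 3 of the 16 rose and 2 fell (limma), while 5.33% of all 27399 probe sets were called. The 5 were the probe sets of Apoa4, Apoc2 and Apom. For each of the 4 genes with several probe sets, all probe sets gave the same call.

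The apolipoprotein genes lie partly in clusters, which places called genes beside genes that were not. On chromosome 9 the order is Apoa1, Apoc3, Apoa4 and Apoa5 within 43.3 kb. Relative to its neighbours in the same array, Apoa4 rose by 2.07 against Apoa1, 1.96 against Apoc3 and 1.90 against Apoa5. On chromosome 7 the order is Apoc2, Apoc4, Apoc1 and Apoe within 29.7 kb. Apoc4, a further apolipoprotein gene, differed by 0.06 and was not called (limma adjusted p = 0.721). Apoc2 rose by 1.06 relative to Apoc4, 1.11 relative to Apoc1 and 0.85 relative to Apoe. In each of these 6 comparisons every high-fat array lay above every normal diet array. The two-sided exact permutation p was 0.1, the smallest that 3 against 3 arrays can give, so none can pass 0.05 by this test. Apoa4 and Apoc2 had already been called on these same arrays, so the separation is no independent support. Set against each other, Apoa4 rose by 0.91 more than Apoc2, with the same exact p of 0.1. Of the neighbours, Apoa1, Apoc3, Apoc1 and Apoe had mean levels above 13, close to the highest values on the arrays. Whether compression there narrowed their differences was not tested.

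**Figure D4:**
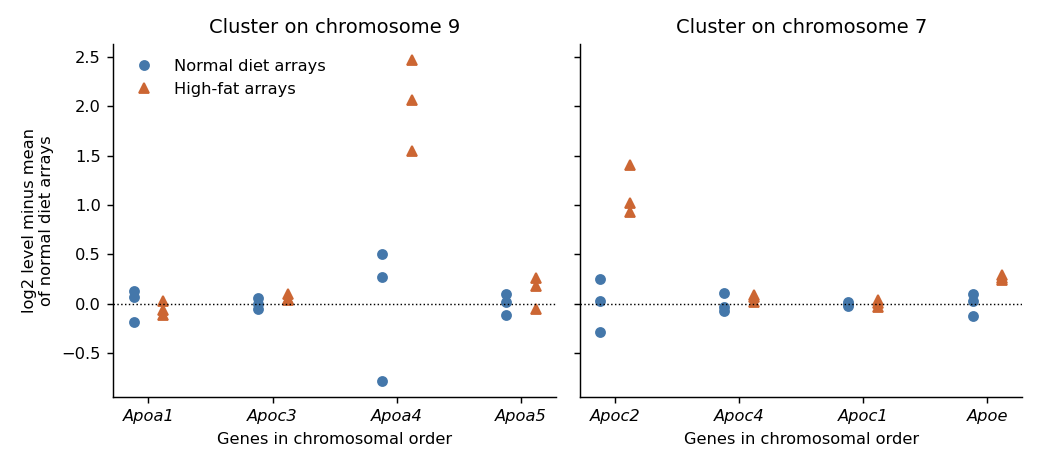
Log2 level minus the mean of the normal diet arrays for the genes of the chromosome 9 and chromosome 7 clusters in their chromosomal order, by array (circles, normal diet; triangles, high-fat diet). In the high-fat arrays Apoa4 lies at least 1.55 and Apoc2 at least 0.93 above the normal diet mean, while no array of their neighbours lies more than 0.29 from its own.

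The genes outside the family whose pattern over the 6 arrays was most like that of Apoa4 were Msrb2, Fam83f and Snx6 (Pearson's r = 0.992, 0.991 and 0.991). For Apoc2 they were Anxa5, Tbce and Ctnnbip1 (r = 0.999, 0.995 and 0.993), and for Apom Spdef, Ccr9 and Trmt1 (r = 0.997, 0.993 and 0.993). These values are descriptions over 6 arrays that share the same diets, and 130, 125 and 118 genes reached an r above 0.95 with Apoa4, Apoc2 and Apom. Of the genes named here, Msrb2, Anxa5, Tbce and Ctnnbip1 were called higher. Fam83f, Snx6, Spdef, Ccr9 and Trmt1 were not called (limma adjusted p = 0.0826, 0.0788, 0.0947, 0.315 and 0.0915).

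Other genes of lipoprotein handling were read from lists. Beside their counts stands the share over all tested genes, 7.60% called, 5.87% as higher and 1.73% as lower. A list of 17 other tested genes held further apolipoprotein genes, HDL-associated genes such as Pon1 and Clu, the editing genes Apobec1 and A1cf, and the receptor gene Apobr. Of these 0 rose and 3 fell, and the median difference was 0.02. The 3 were the serum amyloid genes, whose acute phase proteins displace apolipoprotein A-I from HDL. Saa1 read 13.55, 13.69 and 13.82 against 10.97, 11.00 and 10.87 and was 6.70-fold lower (-2.74 ± 0.11, limma adjusted p = 1.46e-04). Saa2 differed by -3.69 ± 0.15 and Saa4, the constitutive member, by -1.33 ± 0.23. Saa1 and Saa2 are near-identical copies, so their probe sets may share signal. The Saa4 call ended when high-fat 1 or 3 was left out (adjusted p = 0.0726 and 0.0523).

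Of 29 genes of the assembly and secretion of apolipoprotein B particles 2 rose and 2 fell, and the median difference was 0.18. Mttp, which encodes the protein that loads lipid onto apolipoprotein B, read 9.73, 9.59 and 9.29 against 9.39, 9.95 and 9.80 and differed by 0.18 ± 0.18 (limma adjusted p = 0.547). Lpcat3, a phospholipid remodelling gene that aids VLDL lipidation, rose 2.11-fold (1.08 ± 0.14, limma adjusted p = 0.00935). Mia2, a cargo export gene, rose by 0.73 ± 0.13, and Hsp90b1, a chaperone gene, and Vmp1 fell by 0.74 ± 0.17 and 0.59 ± 0.14. Of these 4 genes, 1 was called without high-fat 1, 2 or 3 and 2 without normal diet 1 or 2. Lpcat3 kept its call in each case, and Vmp1 differed by -0.21 (adjusted p = 0.385) when its probe sets were averaged.

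Plasma remodelling and HDL formation were covered by 15 tested genes, of which 2 rose, 0 fell and 13 were not called. Their median difference was 0.30. For 10 of the 15 the diets' arrays did not overlap, against 35.8% of all tested genes. Lpl (1.83 ± 0.52), Pltp (1.43 ± 0.40) and Pctp (1.28 ± 0.42) had wider differences than either called gene, without overlap. They were not called (limma adjusted p = 0.0752, 0.0730 and 0.104) and were named after their values were seen. Angptl8, whose protein takes part in inhibiting lipoprotein lipase, rose 2.35-fold (1.23 ± 0.20, limma adjusted p = 0.0158), and Gpihbp1, the capillary anchor of that enzyme, rose by 0.66 ± 0.15 (limma adjusted p = 0.0407). The Gpihbp1 call was lost after cyclic loess, quantile normalization and array weighting (adjusted p = 0.0724, 0.0810 and 0.0503) and with the replicate block (0.0851). It was also lost when normal diet 1 or 3 (0.0767 and 0.0577) or high-fat 1, 2 or 3 (0.142, 0.0947 and 0.145) was left out. Abca1, the transporter that loads apolipoprotein A-I with lipid, read 9.51, 10.28 and 10.68 against 9.33, 9.28 and 9.17. Its difference of -0.90 ± 0.27 was not called (limma adjusted p = 0.0870). Leaving out normal diet 1 made it pass (-1.22, adjusted p = 0.0123), as did array weights (-0.83, adjusted p = 0.0414). Lcat, the cholesterol esterifying enzyme, differed by -0.28 ± 0.11 without passing (limma adjusted p = 0.154), and passed after cyclic loess (-0.41, adjusted p = 0.0474). The 2 calls of the list became 1 without high-fat 1 or 2, 0 without high-fat 3 and 4 without normal diet 2.

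Of 17 receptor and uptake genes 1 rose and 0 fell, and the median difference was 0.09. For 9 of the 17 the diets' arrays did not overlap, against 35.8% of all tested genes. The called gene was Mylip, whose product degrades lipoprotein receptors, at 0.61 ± 0.14 (limma adjusted p = 0.0465), and it was not called under most alternatives, among them each left-out high-fat array (adjusted p = 0.125, 0.145 and 0.162) and normal diet 1 or 3 (0.0829 and 0.0665). Cd36 (2.17 ± 0.64) and Lsr (-0.67 ± 0.19) differed more than Mylip, without overlap of the diets. They were not called (limma adjusted p = 0.0832 and 0.0791) and were named after their values were seen. Scarb1, the HDL receptor gene, differed by -0.31 ± 0.28 (limma adjusted p = 0.503), or 0.05 without normal diet 3.

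Of 35 genes of factors known to act on apolipoprotein genes 3 rose and 5 fell, and the median difference was 0.09. Hnf4a, a nuclear receptor that drives many of the 10 genes, read 11.88, 11.88 and 11.89 against 11.01, 11.31 and 11.25. It fell by 0.69 ± 0.11 (limma adjusted p = 0.0138). The Hnf4a difference was -0.41 (adjusted p = 0.215) where only suffix-free probe sets were used and -0.48 (adjusted p = 0.0635) where its probe sets were averaged. Its call also ended when high-fat 1, 2 or 3 was left out (adjusted p = 0.0555, 0.0508 and 0.0619). Onecut1 and Foxa3, hepatocyte factors, were 4.30-fold and 2.53-fold lower (-2.10 ± 0.16 and -1.34 ± 0.16). Foxa1 and Foxa2 also fell (by 1.27 and 0.94), and Pparg rose (1.63), 3 genes named after their values were seen. Nr0b2, a repressor in bile acid control, rose by 1.14 ± 0.17, and so did Srebf1, a lipogenic factor, by 2.11 ± 0.26. Creb3l3, whose factor is known to act on Apoa4 and Apoc2, read 10.15, 9.71 and 9.72 against 9.83, 9.86 and 9.86, a difference of -0.01 ± 0.14 (limma adjusted p = 0.959), or 0.13 without normal diet 1. The 8 calls of the list became 4, 3 and 3 without high-fat 1, 2 and 3.

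**Figure D5:**
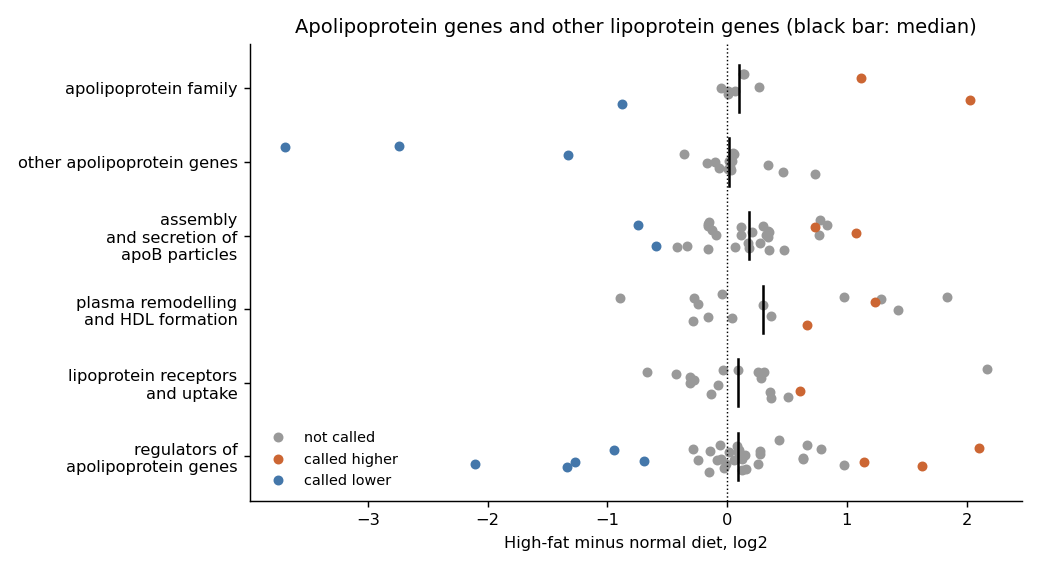
High-fat minus normal diet difference of the 10 apolipoprotein genes and of the tested genes of 5 further lists, in log2 units; each point is a gene, coloured where called, and the black bar is the list's median. The medians lie between 0.02 and 0.30, and the lowest points are Saa2 (-3.69) and Saa1 (-2.74).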

How the data were processed

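RNA was labelled with biotin from 10 µg per array. The deposited log2 levels per probe set were made by the authors with RMA. The submitters' processing notes name Affymetrix Expression Console 1.0. RMA corrects background, normalizes quantiles and summarises probes. The table held 45101 probe sets, of which 64 controls were left out. A gene was read from the probe set of highest mean level. It was tested where at least 3 of 6 arrays exceeded their own 40th percentile. The diets were compared in limma 3.58.1 (R 4.3.3; lmFit, eBayes). P-values were two-sided, Benjamini-Hochberg adjusted across 14071 genes, and called below 0.05. Precision is limited by the number of arrays. The fit was tested on simulated data in which each gene had the same spread in both diets.

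The 10 genes, the lists and the motifs were chosen with earlier results of these data known. Named were all 10 genes, up to 4 called genes per list with the smallest p, the 3 closest patterns to each called member, and 10 landmark genes, of which 7 were tested. The others are not analysed here. Alternatives were other level filters, variance models, scalings and probe set choices, leaving out each array, and a block for replicate number. Pearson's r between arrays over all probe sets was 0.984 to 0.992 within the normal diet, 0.994 to 0.995 within the high-fat diet and 0.974 to 0.988 between diets. Python 3.11.15, pandas 2.3.3 and matplotlib 3.10.9 were used for summaries.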

Additional observations from a re-analysis of the deposited data

How the results depend on the processing

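Over the 10 apolipoprotein genes, 140 of 163 values under an alternative kept their direction and side of the threshold, 11 lost a call and 12 changed sign. The counts of 2 higher and 1 lower gene held under every level filter, variance model, scaling and probe set choice tried. Leaving out 1 array gave 0 to 2 higher and 0 to 1 lower genes, and 169 to 1245 called genes in all. The total split by diet: it was 1065, 949 and 1245 without normal diet 1, 2 and 3, and 272, 217 and 169 without high-fat 1, 2 and 3. The median SD between arrays was 0.166 in the normal diet and 0.117 in the high-fat diet, and the cause of the split was not tested.

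The 12 sign changes among the 10 genes were those of Apoa1, Apob, Apoc1 and Apoc3. Apoa1 differed by 4.35e-04 with array weights, by 0.011 in another probe set and by -0.14 to 0.015 over left-out arrays. Apob differed by -0.12 after cyclic loess, -0.092 with the mean of probe sets, -0.19 in its other probe set and by -0.15 to 0.10 over left-out arrays. Cyclic loess gave -0.11 for Apoc1 and -0.052 for Apoc3, and Apoc1 lay between -0.0075 and 0.027 over left-out arrays. Genes outside the 10 turned too. Over left-out arrays Apobec1 lay between -1.12 and 0.23, Creb3l3 between -0.087 and 0.13 and Scarb1 between -0.53 and 0.050. Apobec1 was 0.16 with array weights and Creb3l3 0.034 after median centring. The causes were not tested.

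Of the lists, receptor genes had 0 calls with trend and robust variance, array weights, quantile normalization, cyclic loess or probe sets without a suffix, and 2 with the mean of probe sets. Plasma remodelling had 1 with quantile normalization or the block, assembly 2 with median centring or the mean of probe sets, and regulators 4 without a suffix. Over left-out arrays the calls were 1 to 3 for assembly, 0 to 4 for plasma remodelling, 0 to 2 for receptors and 3 to 9 for regulators. Probe sets without a suffix cover 7 of the 10 apolipoprotein genes.

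Only the shared replicate numbers could pair arrays of the diets. Deviations of same-numbered arrays correlated at -0.01, 0.05 and 0.08, and 3 of 6 arrays correlated best with their own number. With a replicate block 768 genes were called, with 2 higher and 0 lower apolipoprotein genes (Apom adjusted p = 0.0638).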
